A study of Sus scrofa with 18 samples.

Results

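Chemokines are small secreted or membrane-held proteins that direct the migration of leukocytes, and their receptors are G protein-coupled receptors that read these gradients. The genes of both were described here in the pig myometrium through H3K4me3, a histone mark of promoters, and H3K27ac, a mark of active promoters and enhancers. The set comprised the 51 protein-coding RefSeq genes on chromosomes 1 to 18 and X of Sscrofa11.1 whose symbol names a chemokine or a chemokine receptor by subfamily (CC, CXC, CX3C, XC) or an atypical chemokine receptor, out of 19484 protein-coding genes on these chromosomes. It held 30 ligands, 17 signalling receptors and 4 atypical receptors.

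Myometrium was taken on the mesometrial side of the uterus of Yorkshire gilts on day 15. GD15M_CM is the inner circular muscle and GD15M_LM the outer longitudinal muscle of naturally mated, pregnant gilts, and CD15M_CM is the circular muscle of cyclic gilts on day 15 of the oestrous cycle. Whether the layers came from the same gilts is not given in the labels. H3K4me3, H3K27ac and an IgG control were each profiled in 2 gilts per group by CUT&Tag, in which a protein A-Tn5 fusion cuts DNA beside the antibody, for 18 libraries in all. Both gilts were pooled before peaks were called against IgG, so there are 6 peak lists and no value per gilt. No difference below could therefore be set against the spread between animals, no p-value was computed, and the depth of a library cannot be read from the lists.

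In the uterus, chemokines from stromal, endothelial and epithelial cells recruit T cells, natural killer cells, macrophages and other leukocytes around implantation. Interferons induce the ligands of CXCR3, while CXCL12 and the ligands of CCR7 belong to the homeostatic group that positions cells in resting tissue. Atypical receptors bind chemokines without the usual G protein signal and clear or transport them.

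The peak lists of GD15M_CM, GD15M_LM and CD15M_CM held 33599, 31910 and 36331 H3K4me3 peaks and 79877, 57010 and 82037 H3K27ac peaks. A gene was taken as marked when a peak overlapped it or the 3 kb on either side. Its level was the percentile of its strongest peak by fold enrichment over IgG among all peaks of the same list, with 0 for no peak, because the lists differ in size and may differ in depth. Runs of 3 values are given in the order GD15M_CM, GD15M_LM and CD15M_CM. Gene models were used without strand, so positions are counted from the end of the gene with the lower coordinate, and the start of transcription was not located. Of smooth muscle genes, 6 (MYH11, ACTA2, DES, CNN1, TAGLN and SMTN) were looked up for the tissue label. All carried both marks in all 3 tissues, as did 67.4% of all protein-coding genes, so presence alone says little. Their percentiles summed to 465.1, 527.1 and 520.8 for H3K4me3 and to 514.0, 518.2 and 560.9 for H3K27ac.

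Fewer chemokine system genes than protein-coding genes in general were marked. H3K4me3 was found at 30 of 51 in GD15M_CM (58.8%, all genes 74.0%), 29 in GD15M_LM (56.9%, all genes 74.9%) and 28 in CD15M_CM (54.9%, all genes 75.7%). H3K27ac was found at 22 of 51 in each tissue (43.1%), beside 74.1%, 73.3% and 76.0% of all genes. Where there was a peak it also ranked lower. The median H3K4me3 percentile of the marked members was 56.2, 55.6 and 58.2, beside 81.5, 80.2 and 82.5 for all marked genes, and that of H3K27ac was 67.6, 62.2 and 80.7, beside 88.0, 84.4 and 86.2. These genes are short, with a median length of 5168 bp against 20697 bp for all protein-coding genes. In windows of 3 kb around the gene ends alone the share of members was still below that of all genes, with 28, 26 and 26 marked by H3K4me3 (54.9%, 51.0% and 51.0%, all genes 70.8%, 71.7% and 72.6%) and 20, 19 and 20 by H3K27ac (39.2%, 37.3% and 39.2%, all genes 70.4%, 69.4% and 72.2%).

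The marks were also less often found together. Of the members with H3K4me3, 18 of 30 in GD15M_CM had H3K27ac as well (60.0%, all genes 94.8%), 19 of 29 in GD15M_LM (65.5%, all genes 94.2%) and 18 of 28 in CD15M_CM (64.3%, all genes 95.4%). Over all 3 tissues, 11 members had H3K4me3 and never H3K27ac, namely CCL4, CCL3L1, CCL14, CCL19, CCL21, CCL24, CCL26, CCR1, CCR2, CXCR3 and ACKR1. Such genes were 2.8% of all protein-coding genes. The reverse, H3K27ac without H3K4me3 in any tissue, was limited to 3 receptors, CCR9, CXCR2 and CXCR6 (all genes 4.15%). In bulk tissue, fewer cells of the type that uses a gene and less of the mark per cell cannot be told apart.

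**Figure D1:**
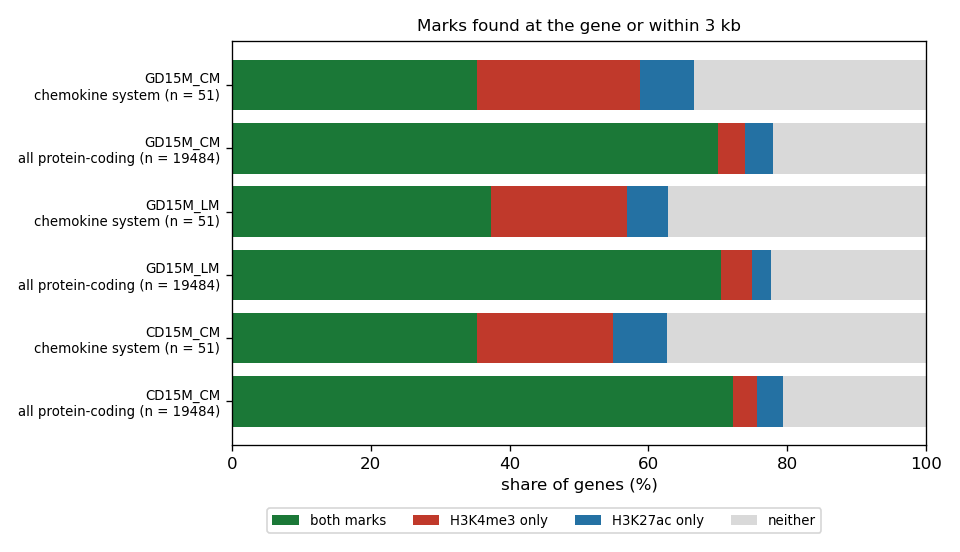
Share of genes (%) with both marks, H3K4me3 only, H3K27ac only or neither in the gene and 3 kb on either side, for the 51 chemokine system genes and all 19484 protein-coding genes in each tissue. H3K4me3 without H3K27ac covers 23.5%, 19.6% and 19.6% of the chemokine system genes and 3.84%, 4.37% and 3.46% of all genes in GD15M_CM, GD15M_LM and CD15M_CM.

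Some members had peaks in every list and others in none. Of the 51 genes, 14 carried both marks in all 3 tissues (27.5%, all genes 67.4%) and 14 had no peak of either mark in any (27.5%, all genes 18.6%). The members with a peak in every list, whose levels still differed between tissues, included the ligands CCL2, CCL17, CCL25, CCL27, CCL28, CXCL12, CXCL16 and CX3CL1, the receptors CCR10 and CXCR4, and the atypical receptors ACKR2, ACKR3 and ACKR4. The unmarked genes were the ligands CCL1, CCL11, CCL16, CCL20, CCL22, CXCL8, CXCL9, CXCL11, CXCL13 and XCL1 and the receptors CCR3, CCR4, CCR6 and CCR8. Among them are CXCL8, the classical neutrophil attractant, CXCL13, which draws B cells into follicles, and the CCR4 ligand CCL22. The remaining 23 members (45.1%), beside 2720 of 19484 genes in general, had a peak in some lists and not in others.

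**Figure D2:**
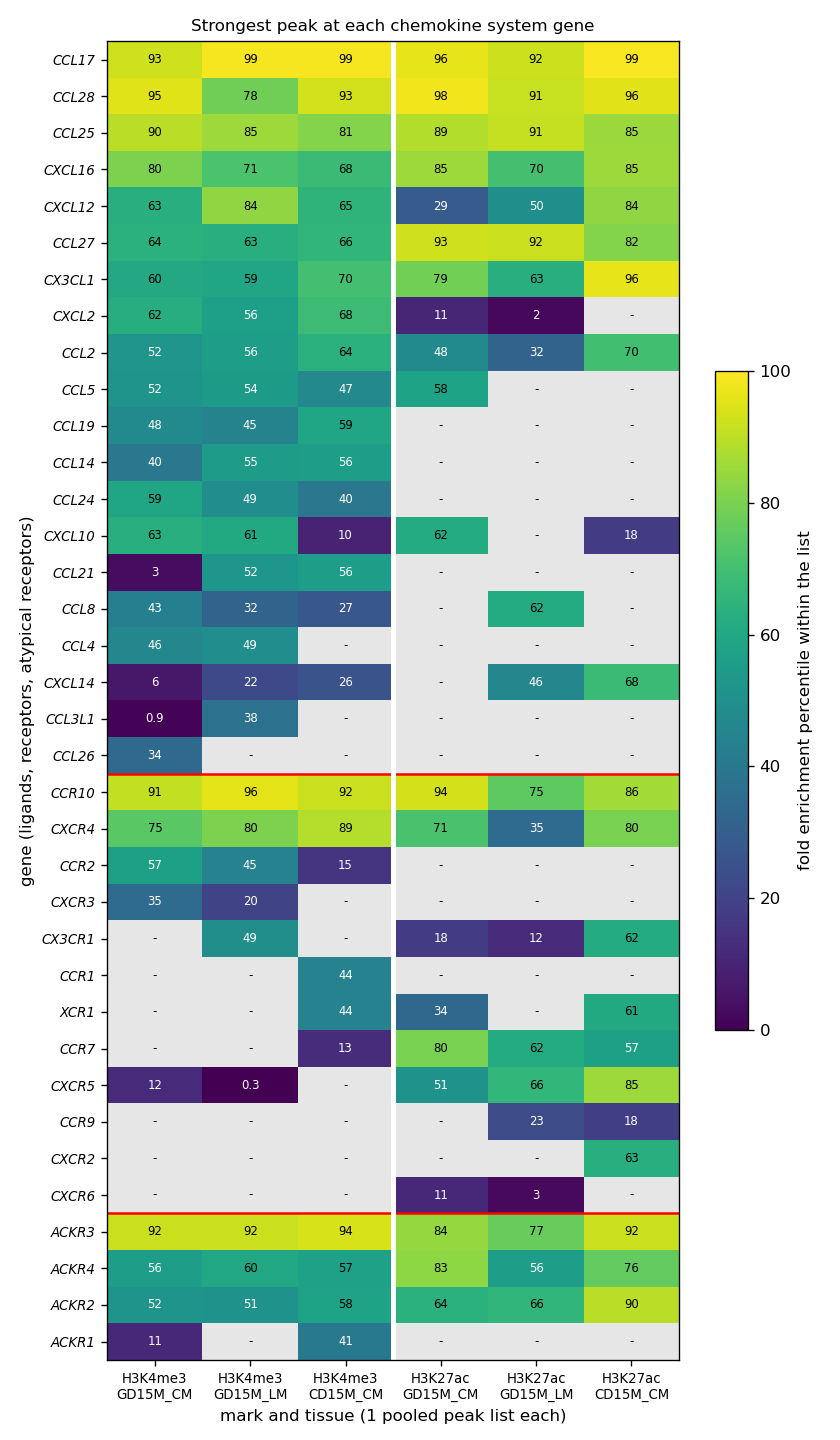
Fold enrichment percentile of the strongest peak (colour and number, from 0 to 100) at the chemokine system genes reported here with a peak in any of the 6 lists, with ligands above, receptors in the middle and atypical receptors below. A dash on grey is no peak. ACKR3 and CCL28 stay in the upper part of every list, whereas the H3K27ac columns hold no peak for most inflammatory CC ligands.

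Among the inflammatory CC ligands, which attract monocytes, T cells and eosinophils to sites of inflammation, 11 of 15 listed genes were placed. H3K4me3 was found at 8 of these in GD15M_CM, 7 in GD15M_LM and 5 in CD15M_CM, and H3K27ac at 2, 2 and 1. CCL5 and CCL4 both attract T cells and monocytes. CCL5 (chromosome 12, 39652731 to 39659121) had H3K4me3 at percentiles 51.9, 54.4 and 47.0 in GD15M_CM, GD15M_LM and CD15M_CM. Its peak was 3006 bp long in GD15M_CM and 2968 bp in GD15M_LM, with fold enrichments of 5.04 and 6.76, and was replaced in CD15M_CM by 3 short peaks of 862, 439 and 717 bp with at most 4.40-fold enrichment. The percentile thus hides a shorter H3K4me3 domain in the cyclic tissue. H3K27ac at CCL5 was present only in the GD15M_CM list, as 2 peaks of 493 and 236 bp with fold enrichments of 2.76 and 3.69, the stronger at percentile 58.2. CCL4 (chromosome 12, 39479190 to 39480511) had an H3K4me3 peak at percentile 46.4 in GD15M_CM and 49.0 in GD15M_LM, 1278 and 1245 bp long, and none in CD15M_CM. Both pregnant tissues thus carried a peak over CCL4 and the cyclic tissue did not, and no list had H3K27ac there. CCL3L1, a close relative of CCL4, had H3K4me3 percentiles of 0.9, 37.8 and 0, the GD15M_CM peak being among the weakest of its list.

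CCL2 and CCL8 attract monocytes through CCR2. CCL2 (chromosome 12, 40798109 to 40800013) was marked throughout, with H3K4me3 percentiles of 52.1, 55.6 and 64.0 and H3K27ac percentiles of 48.0, 31.9 and 69.8, the highest in CD15M_CM for both marks. CCL8 had H3K4me3 at 43.1, 31.8 and 27.1, and its single H3K27ac peak (61.7, in GD15M_LM) lay outside the gene. CCL24 and CCL26, the eotaxins that attract eosinophils through CCR3, had H3K4me3 at 59.3, 49.0 and 39.8 and at 34.3, 0 and 0. For CCL26 this rests on 1 peak of 223 bp. By fold enrichment the highest of the 3 tissues was GD15M_CM for CCL8, CCL24 and CCL26, and neither eotaxin had H3K27ac. Ranked by −log10 p, CCL8 stood at 46.1, 46.7 and 21.3. The CCL24 values come from different sites. In GD15M_CM the peak lay at 10347013 to 10349127 on chromosome 3. The strongest peaks of GD15M_LM and CD15M_CM began at 10358283 and 10358355, where GD15M_CM had none. CCL14, a ligand of CCR1, had H3K4me3 at 40.0, 55.0 and 56.0.

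The 3 ligands of CXCR3 (CXCL9, CXCL10 and CXCL11) lie side by side on chromosome 8, and interferon-gamma is their classical inducer. CXCL9 and CXCL11 had no peak in any list. The H3K4me3 percentile of CXCL10 (71693641 to 71695948) was 62.6 in GD15M_CM and 60.9 in GD15M_LM but 9.7 in CD15M_CM. The peaks were 2093, 1747 and 314 bp long with fold enrichments of 7.72, 9.59 and 2.79, and their −log10 p values were 19.37, 20.56 and 3.56. Both pregnant layers therefore carried a broad H3K4me3 domain over CXCL10 where the cyclic circular muscle had a short, weak peak. H3K27ac reached 61.7 in GD15M_CM through a peak of 248 bp, 17.7 in CD15M_CM through one of 200 bp, and had no peak in GD15M_LM. All of these overlap CXCL10 itself but also lie in the window of ART3, a long gene that spans the region, so a peak cannot be given to CXCL10 alone. Between CXCL10 and CXCL11, beyond 3 kb of CXCL10, an H3K27ac peak lay at 71701378 to 71701744 in GD15M_LM (percentile 82.7) and at 71701354 to 71701666 in CD15M_CM (82.0), and GD15M_CM had none. Another H3K27ac peak, between CXCL9 and CXCL10, lay at 71674499 to 71674858 in GD15M_CM (47.28) and at 71674446 to 71674869 in CD15M_CM (37.17). GD15M_LM had none there. CD15M_CM thus shared the latter site with GD15M_CM and the former with GD15M_LM, and no H3K27ac site was common to all 3 lists.

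**Figure D3:**
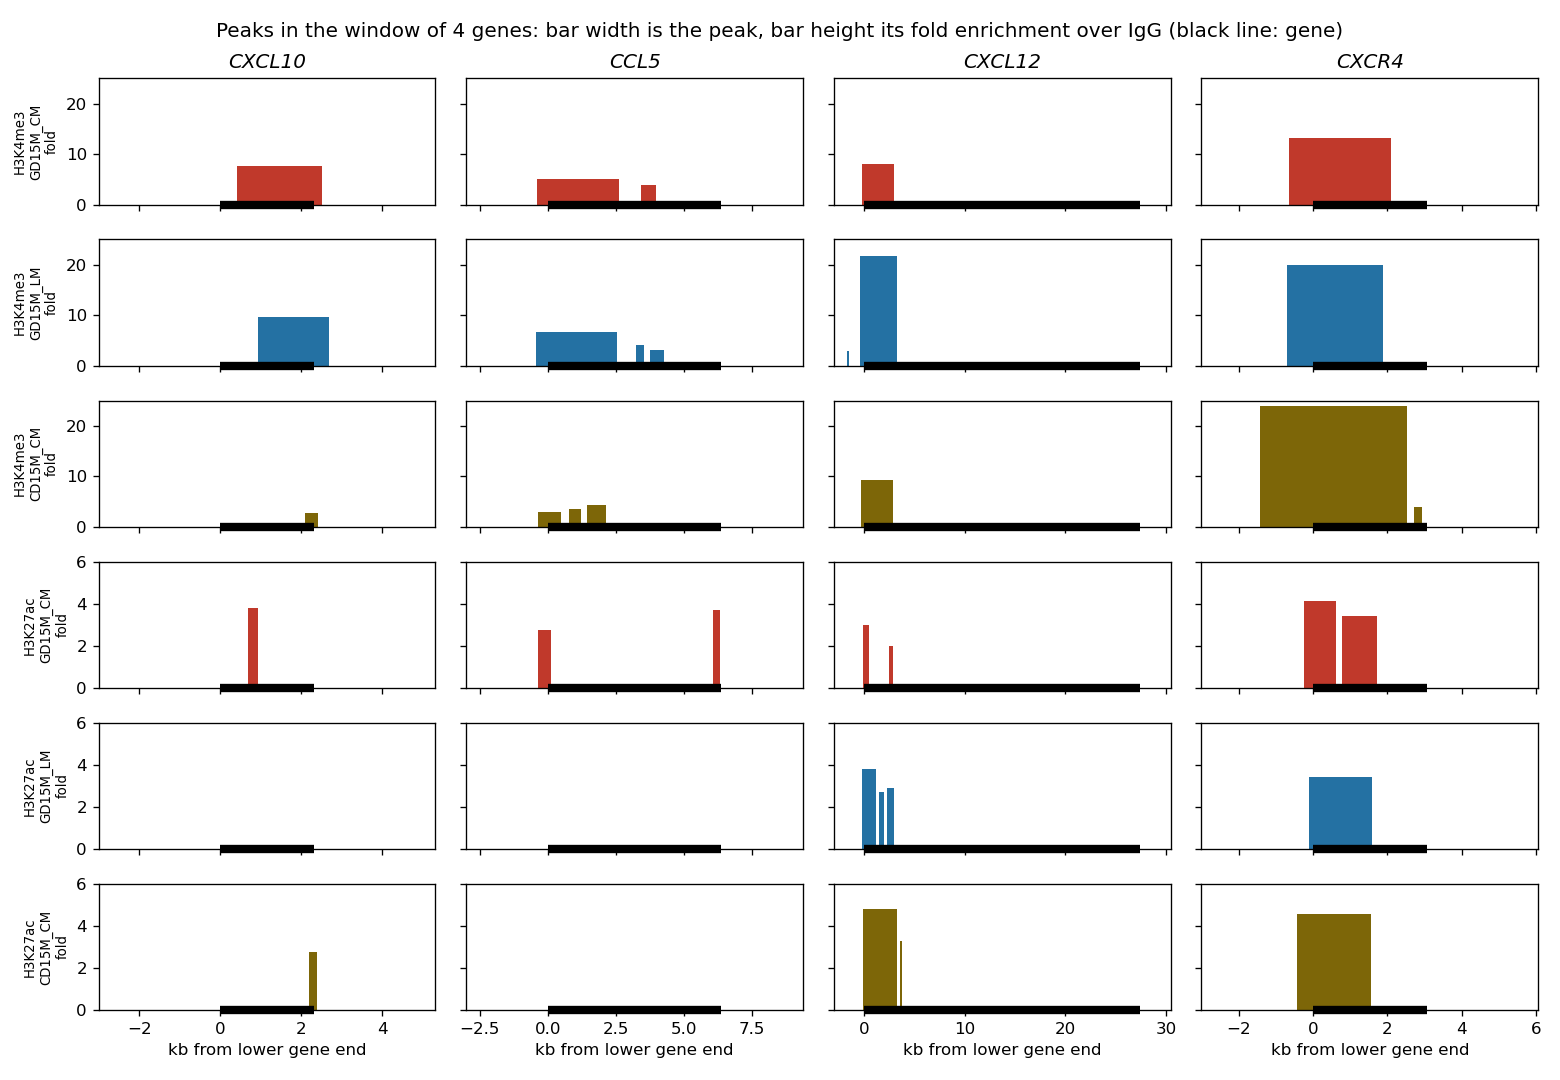
Peaks of each mark and tissue in the windows of CXCL10, CCL5, CXCL12 and CXCR4, by distance in kb from the lower end of the gene, with fold enrichment over IgG as bar height and peak length as bar width. The H3K4me3 bar over CXCL10 measures 2093, 1747 and 314 bp in GD15M_CM, GD15M_LM and CD15M_CM, and the H3K27ac bar at CXCL12 widens from 585 to 1418 and 3403 bp in that order.

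The neutrophil-attracting CXC ligands were hardly marked by H3K27ac. CXCL2 had H3K4me3 at 62.3, 56.4 and 68.4 but H3K27ac only at 10.5, 2.1 and 0, and CXCL8 had neither mark. The other 4 genes of that list, CXCL1, CXCL3, CXCL5 and CXCL6, were not placed under these symbols.

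Of the 11 lymphoid and homeostatic ligands, 8 had H3K4me3 in each tissue and 5, 6 and 6 had H3K27ac. CXCL12 (chromosome 14, 91516383 to 91543857), a stromal factor that binds CXCR4 and ACKR3, showed different orders for the marks. Its H3K4me3 percentile was 63.3 in GD15M_CM, 83.5 in GD15M_LM and 65.2 in CD15M_CM, with fold enrichments of 7.97, 21.7 and 9.36. For H3K27ac it was 28.8, 49.9 and 83.5, with fold enrichments of 3.01, 3.79 and 4.82 in peaks of 585, 1418 and 3403 bp. Thus H3K4me3 was highest in the longitudinal layer and H3K27ac in the cyclic circular muscle. GD15M_CM was lowest for both marks, but for H3K4me3 only slightly below CD15M_CM (63.3 and 65.2). These peaks lie at the lower end of CXCL12 and in the window of no other protein-coding gene.

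CCL19 and CCL21 guide dendritic cells and naive T cells through CCR7. CCL21 (chromosome 10, 32093783 to 32094482) had H3K4me3 at 3.1 in GD15M_CM, 52.4 in GD15M_LM and 56.2 in CD15M_CM, in peaks of 323, 2960 and 2359 bp. GD15M_CM had a short, weak peak where the other lists had a domain that covers the whole gene. CCL19 had H3K4me3 at 47.8, 44.7 and 59.4, and neither gene had H3K27ac in any tissue. CXCL14, a ligand made constitutively in many epithelia, was likewise lowest in GD15M_CM, with H3K4me3 at 6.3, 21.9 and 25.7 and H3K27ac at 0, 46.0 and 68.1. All peaks of CXCL14 lay at the upper end of the gene.

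Of the ligands, 5 of 30 reached the 90th percentile in some list (16.7%, all genes 52.2%). CCL28, a mucosal chemokine of epithelial cells that binds CCR10 and CCR3, had H3K4me3 at 95.2, 78.3 and 93.3 and H3K27ac at 97.8, 91.4 and 95.5. Its strongest peaks lay about 9 kb inside the gene (chromosome 16, 27990024 to 28010859) in every list. A separate H3K4me3 domain near the upper end of CCL28 reached percentile 67.45 in GD15M_CM (2892 bp) and 79.21 in CD15M_CM (3567 bp), and GD15M_LM had no peak there. The H3K27ac peaks in the CCL28 window numbered 10 in GD15M_CM, 1 in GD15M_LM and 6 in CD15M_CM. CCL28 was thus marked at more sites in circular muscle than in longitudinal muscle, where each mark had 1 peak. H3K4me3 peaks covered 4339, 1365 and 7338 bp of its window and H3K27ac peaks 6534, 891 and 3131 bp. For both marks the GD15M_LM list is also the smallest. CX3CL1, the membrane-held ligand of CX3CR1 made by endothelium and epithelium, had H3K4me3 at 60.3, 59.3 and 70.0 and H3K27ac at 78.7, 62.8 and 96.2. In CD15M_CM its H3K27ac formed 1 peak of 3731 bp with 6.50-fold enrichment, the widest and strongest of the 3 tissues.

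The remaining 3 ligands with such high ranks share their peaks with neighbours. CCL17, which draws cells with CCR4, had H3K4me3 at 92.8, 98.6 and 98.8 and H3K27ac at 96.4, 92.3 and 99.0, in peaks about 27 kb from its lower end that also lie in the windows of CIAPIN1 and COQ9. Without shared peaks CCL17 had no H3K4me3, and its H3K27ac reached 2.37, 24.99 and 40.89. CCL25, the CCR9 ligand of thymus and gut, had H3K4me3 at 89.7, 85.5 and 81.4 and H3K27ac at 88.6, 91.2 and 84.9 in peaks shared with ELAVL1. CCL27, the CCR10 ligand of skin, had H3K4me3 at 63.7, 62.8 and 65.9 and H3K27ac at 92.7, 91.9 and 81.5 in peaks outside the gene that also lie near LOC110255597. CXCL16, the membrane-held ligand of CXCR6, had H3K4me3 at 80.2, 71.5 and 68.1 and H3K27ac at 85.3, 70.4 and 85.3, its strongest peaks lying beyond the gene in the window of MED11 as well. Over the lists, the strongest peak of 8 or 9 marked members per list also belonged to the window of a gene outside the family. For H3K27ac the median percentile of these was 85.3, 72.8 and 85.3, and that of peaks near members alone 58.2, 55.7 and 69.8.

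By role, H3K4me3 was found at 6, 7 and 7 of 17 receptors (35.3%, 41.2% and 41.2%) and at 20, 19 and 17 of 30 ligands (66.7%, 63.3% and 56.7%), in the order GD15M_CM, GD15M_LM and CD15M_CM. H3K27ac was found at 8, 8 and 9 receptors (47.1%, 47.1% and 52.9%) and at 11, 11 and 10 ligands (36.7%, 36.7% and 33.3%). That H3K27ac order turned when only peaks with a −log10 p of 10 and a 5-fold enrichment were kept, which left 1, 0 and 1 receptors and 4, 4 and 3 ligands, and with equal numbers of top peaks it turned in GD15M_CM (5 receptors, 10 ligands). The receptors had the lower H3K4me3 share in either case. By subfamily, of 10 CC receptors, 3, 3 and 5 had H3K4me3 and 3, 4 and 4 had H3K27ac, and of 5 CXC receptors 3, 3 and 1 had H3K4me3 and 3 in each tissue had H3K27ac. CXCR4 (chromosome 15, 15663652 to 15666706), the receptor of CXCL12, had H3K4me3 at 74.5, 80.1 and 88.8 with fold enrichments of 13.11, 19.85 and 23.85. Its H3K27ac percentile was 71.2, 35.0 and 79.9, with fold enrichments of 4.12, 3.40 and 4.57. H3K27ac at CXCR4 was thus lowest in the longitudinal layer, whereas at CXCL12 it was lowest in GD15M_CM. CCR10, the receptor of CCL27 and CCL28, had H3K4me3 at 90.9, 96.0 and 92.1 and H3K27ac at 93.7, 75.1 and 86.1, but the strongest peak of each list also lies near CNTNAP1.

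CCR2 guides monocytes and has peaks of its own. CCR2 (chromosome 13, 29368735 to 29374564), the receptor of CCL2 and CCL8, had H3K4me3 at 56.7 in GD15M_CM, 44.5 in GD15M_LM and 15.4 in CD15M_CM. Of its H3K4me3 peaks the longest spanned 1564 bp in GD15M_CM and 1648 bp in GD15M_LM but 221 bp in CD15M_CM, so both pregnant tissues again carried a domain where the cyclic one had short peaks. CXCR3 (X, 57592032 to 57595706), the receptor of CXCL10 on activated T cells, had H3K4me3 at 35.1 in GD15M_CM and 20.5 in GD15M_LM, in peaks of 1036 and 1123 bp, and none in CD15M_CM. No list had H3K27ac at CXCR3 or CCR2.

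CX3CR1 (chromosome 13, 23944386 to 23957567), the CX3CL1 receptor of macrophages and cytotoxic lymphocytes, had its only H3K4me3 peak in GD15M_LM (49.5, 680 bp), 13037 bp from its lower end. Its H3K27ac percentile was 17.9, 11.9 and 61.5, and the 4 H3K27ac peaks of CD15M_CM were spread over the gene. CXCR5, the CXCL13 receptor of B cells and follicular T cells, had H3K27ac at 51.1, 66.0 and 85.3 but H3K4me3 only at 12.3, 0.3 and 0. The CD15M_CM peak that gives CXCR5 its rank is shared with BCL9L, and without shared peaks the order turned to 50.5, 66.0 and 21.5. CCR7, the receptor of CCL19 and CCL21, had H3K27ac at 79.9, 61.5 and 56.7 and H3K4me3 in CD15M_CM alone (12.9). XCR1, a receptor of cross-presenting dendritic cells, had H3K27ac at 33.6, 0 and 60.9. XCR1 and CCR1 overlap and share the H3K4me3 peaks that give both a percentile of 44.4 in CD15M_CM and 0 elsewhere. CCR9 (H3K27ac 0, 23.4 and 18.5), CXCR6 (11.3, 2.7 and 0) and CXCR2 (0, 0 and 63.1) had weak or single H3K27ac peaks, that of CXCR2 being 200 bp long and beyond the end of the gene.

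Of the 4 atypical receptors, 4, 3 and 4 had H3K4me3 and 3 in each tissue had H3K27ac. ACKR3 (chromosome 15, 136370457 to 136382559), which scavenges CXCL12, had the most constant high values of the CXCL12 axis. H3K4me3 at ACKR3 stood at 91.8, 91.9 and 93.8, in peaks of 5548, 5878 and 5778 bp with fold enrichments of 21.44, 27.05 and 28.22, and H3K27ac at 84.2, 76.6 and 92.0. In each list ACKR3 ranked above CXCR4 and CXCL12 for both marks by fold enrichment. By −log10 p it fell below CXCL12 for H3K27ac in GD15M_LM (64.5 and 70.4) and CD15M_CM (87.1 and 91.1). For H3K4me3 it was then just below CXCR4 in CD15M_CM (84.3 and 84.7). ACKR2, a scavenger of inflammatory CC ligands, had H3K4me3 at 51.9, 51.0 and 58.2 and H3K27ac at 64.0, 65.8 and 89.7, most of its strongest peaks also lying near ZNF662. ACKR4, which binds CCL19, CCL21 and CCL25, had H3K4me3 at 55.7, 59.8 and 57.1 and H3K27ac at 83.2, 55.9 and 76.0, in peaks that ACAD11 shares. ACKR1, known from erythrocytes and venules, had only H3K4me3, at 11.0, 0 and 40.6, in peaks that CADM3 shares.

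The comparison of GD15M_CM with GD15M_LM asks how the layers of the pregnant myometrium differ. A gene was counted as different when its percentile differed by at least 10 points, among genes with a peak in either list. For H3K4me3, 8 of 31 members were higher in GD15M_CM (25.8%, all genes 20.3%) and 6 in GD15M_LM (19.4%, all genes 19.3%), shares near those of all genes. For H3K27ac, 10 of 25 were higher in GD15M_CM (40.0%, all genes 32.0%) and 6 in GD15M_LM (24.0%, all genes 21.6%). The median difference was 0.89 points for H3K4me3, beside 0.42 for all genes, and 7.59 points for H3K27ac, beside 1.97. Which layer held more of the higher genes depended on the processing, and the H3K27ac lists differ in size (79877 and 57010 peaks). With equal numbers of top peaks, 3 members were higher in GD15M_CM and 6 in GD15M_LM for H3K4me3, and 6 and 8 for H3K27ac. CCL26 was higher by at least 30 points in GD15M_CM and CCL21, CCL3L1 and CX3CR1 in GD15M_LM for H3K4me3. For H3K27ac these were CCL5, CXCL10, CXCR4 and XCR1 in GD15M_CM and CCL8 and CXCL14 in GD15M_LM.

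The comparison of GD15M_CM with CD15M_CM asks how circular muscle differs between pregnant and cyclic gilts. For H3K4me3, 9 of 33 members were higher in GD15M_CM (27.3%, all genes 11.9%) and 10 in CD15M_CM (30.3%, all genes 23.1%). The members higher in GD15M_CM were CCL4, CCL8, CCL24, CCL26, CCR2, CXCL10, CXCL16, CXCR3 and CXCR5, and those higher in CD15M_CM were ACKR1, CCL2, CCL14, CCL19, CCL21, CCR1, CCR7, CXCL14, CXCR4 and XCR1. For H3K27ac, 6 of 25 were higher in GD15M_CM (24.0%, all genes 24.6%) and 11 in CD15M_CM (44.0%, all genes 25.4%). Among the latter were ACKR2, CCL2, CCR9, CX3CL1, CX3CR1, CXCL12, CXCL14, CXCR2, CXCR5 and XCR1. The median difference was −1.9 points for H3K4me3, beside −2.04 for all genes, and −7.8 for H3K27ac, beside −0.05. Which tissue held more of the higher genes for H3K4me3 depended on the processing. With equal numbers of top peaks, 10 members were higher in GD15M_CM and 7 in CD15M_CM. Both comparisons use the GD15M_CM lists.

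**Figure D4:**
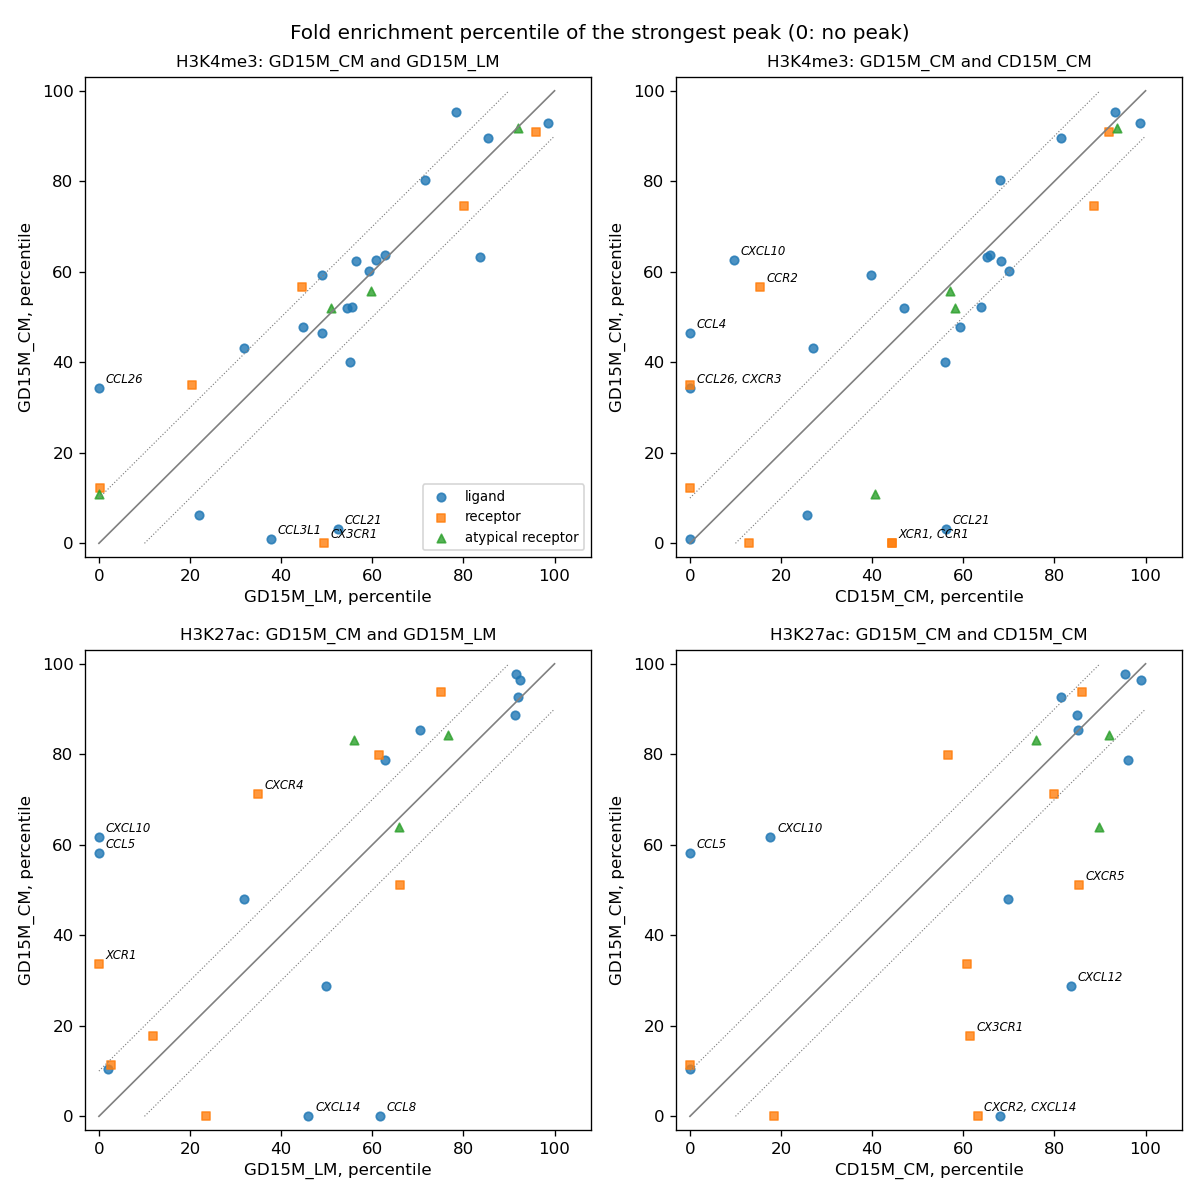
Percentile of the strongest peak in GD15M_CM (vertical) against GD15M_LM (left) or CD15M_CM (right) for H3K4me3 (above) and H3K27ac (below), one point for each reported chemokine system gene with a peak in either list. Dotted lines mark differences of 10 points and names are given from 30 points. In the pregnant and cyclic H3K4me3 panel, CXCL10, CCR2, CCL4, CXCR3 and CCL26 stand above the diagonal and CCL21, CCR1 and XCR1 below it. In that of H3K27ac, CCL5 and CXCL10 stand above it and CXCL12, CX3CR1, CXCR5, CXCR2 and CXCL14 below it.

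A range of at least 30 points between tissues was found at 11 members for H3K4me3 (21.6%, all genes 6.67%). For H3K27ac it was found at 13 (25.5%, all genes 26.3%), a share near that of all genes. CX3CR1, XCR1 and CXCL10 had such a range for both marks. Many of these differences are the presence or absence of a small peak. Peaks were then required to reach a −log10 p of 10 and a 5-fold enrichment. H3K27ac was left at 5 members in GD15M_CM, 4 in GD15M_LM and 6 in CD15M_CM (9.8%, 7.84% and 11.8%). The same threshold lowered the share of all genes with H3K27ac as well, to 38.9%, 44.5% and 37.7%. Of the 26 differences of at least 30 points, 22 dropped below 10 points. Under that threshold H3K4me3 at CXCL10 and CCL5 remained in both pregnant tissues and not in CD15M_CM, at CCR2 in GD15M_CM alone, and at CCL21 in GD15M_LM and CD15M_CM. CCL4 kept such an H3K4me3 peak only in GD15M_LM, CCL19 only in CD15M_CM and CXCR3 in no list.

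Markers of other cell types were also looked up. The 5 placed T cell markers (CD3E, CD3D, CD3G, CD2 and LCK) had H3K4me3 in every tissue, with percentiles that summed to 344.5 in GD15M_CM, 301.9 in GD15M_LM and 282.4 in CD15M_CM. CD3D and CD3G had identical values (68.0, 61.7 and 52.6), so their parts of the sums are not independent. Between the layers LCK differed most (90.9 in GD15M_CM and 63.2 in GD15M_LM), and CD3E was higher in GD15M_LM (51.7 and 57.5). The H3K27ac percentiles of the 5 markers summed to 197.6, 63.6 and 52.0, with 3, 1 and 1 of 5 marked and CD3E and CD3D at 0 throughout. CD3G and CD2 had H3K27ac peaks in GD15M_CM alone (67.3 and 65.4), the tissue where CCL5 had its H3K27ac peaks. Of 6 macrophage markers 4, 5 and 5 had H3K4me3 and 4 in each tissue H3K27ac, with H3K4me3 sums of 296.4, 309.0 and 371.0 and H3K27ac sums of 337.5, 307.9 and 341.5. CD163 had no H3K4me3 peak in GD15M_CM and MARCO none in any list. The 6 epithelial markers all had H3K4me3, and all ranked at least 10 points higher in GD15M_CM than in GD15M_LM, with sums of 468.5, 349.6 and 473.4, beside the wider marking of CCL28 in both circular muscle tissues. Their H3K27ac summed to 462.4, 196.1 and 365.4, with 5 of 6 at least 10 points higher in GD15M_CM than in GD15M_LM and KRT18 at 0 in GD15M_LM. CLDN4 was highest in GD15M_LM (85.0, 92.3 and 75.6). CDH1 was low in CD15M_CM as well as in GD15M_LM (76.2, 7.5 and 4.8). Mural cell markers had H3K27ac sums of 297.6, 412.9 and 524.2. CXCL12 had this order, but so did the smooth muscle and B cell sums. Of the mural markers, KCNJ8 and ABCC9 had it, PDGFRB, NOTCH3 and CSPG4 did not, and RGS5 was at 0 in GD15M_CM and GD15M_LM. B cell markers, of which 3, 3 and 4 of 6 had H3K27ac, summed to 73.9, 151.1 and 206.6 for that mark and 114.4, 210.0 and 158.1 for H3K4me3, with MS4A1 at 0 in every list. For endothelium the H3K4me3 sums were 374.4, 376.9 and 392.5 and the H3K27ac sums 267.9, 244.7 and 273.8, for mesothelium 361.1, 229.3 and 373.8 and 284.6, 203.6 and 283.8, and for neutrophils 83.4, 89.4 and 91.2 and 96.5, 93.3 and 98.2. KDR had no H3K27ac in any list, and S100A8, S100A12 and MPO had neither mark. The part of any of these cells in the results was not tested.

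Downstream of the receptors the picture was different. All 28 listed genes of chemokine receptor signalling (G protein subunits, arrestins, receptor kinases, phosphoinositide 3-kinase, Rac activators and Src and JAK kinases) had H3K4me3 in each tissue, with median percentiles of 81.1, 78.3 and 79.2. H3K27ac was found at 25, 27 and 27 of them, with medians of 88.5, 84.2 and 86.9, near those of all marked genes. For H3K27ac 10 of the 28 were higher in GD15M_CM than in GD15M_LM (all genes 32.0%) and 5 lower (all genes 21.6%). Beside CD15M_CM, 8 were higher in GD15M_CM (all genes 24.6%) and 5 lower (all genes 25.4%). For H3K4me3 these counts were 8 and 2 (all genes 20.3% and 19.3%), and 4 and 4 (all genes 11.9% and 23.1%). H3K27ac ranged by at least 30 points at 10 of the 28 (all genes 26.3%), several of them used mainly by leukocytes. RAC2, the Rac protein of blood cells, stood at 86.0, 2.8 and 87.0, and PIK3CG, the phosphoinositide 3-kinase below these receptors, at 69.6, 16.0 and 0. DOCK2, which activates Rac in migrating lymphocytes, stood at 0, 92.4 and 60.9, so these did not share one order. Of the related chemoattractant genes, 6 of the 8 placed had both marks in each tissue. CCRL2, a non-signalling receptor that presents chemerin, had H3K4me3 at 20.4, 43.9 and 54.5 and H3K27ac at 68.4, 42.6 and 85.0.

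Many members lie in clusters, here runs of members less than 150 kb apart. In the receptor cluster on chromosome 13, CCR9, CXCR6 and XCR1 had H3K27ac in some tissue, and CCR1, CCR2 and CCR3 had none. In the CC ligand cluster on chromosome 12 from CCL4 to CCL5 (39476190 to 39662121) there were 6, 0 and 2 H3K27ac peaks. The strongest of these lay between CCL16 and CCL5, at 39647252 to 39648581 in GD15M_CM (percentile 79.61) and at 39648169 to 39648643 in CD15M_CM (53.51). The longitudinal layer thus had no H3K27ac peak in the whole cluster. Its 8 H3K4me3 peaks there lay at the same genes as the 5 of GD15M_CM (CCL4, CCL3L1, CCL14 and CCL5). The higher number came from more separate peaks per gene, 2 and 1 at CCL3L1, 2 and 1 at CCL14 and 3 and 2 at CCL5. Per 100 kb the cluster held 3.23, 0.0 and 1.08 H3K27ac peaks, beside 3.3, 2.35 and 3.39 over the genome. The GD15M_CM density was thus near that of the genome, and the GD15M_LM list is the smallest.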

How the data were processed

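H3K4me3, H3K27ac and IgG were profiled in GD15M_CM, GD15M_LM and CD15M_CM, and all 18 libraries were assigned to a group from their titles. Per the submitters' notes the authors used BWA 0.7.17-r1188, SAMtools 1.9, Picard 2.8.3 and MACS2 2.2.6 on the Sus scrofa 11.1 assembly, with duplicates and poorly mapped reads removed. They pooled both gilts of a group before peak calling. The deposited lists give each peak's fold enrichment, a ratio of mark over IgG whose scaling is not given in the sources used here. The deposited −log10 p column has an unreadable header and was identified by its identity with the same column in the study's peak table. A second unreadable column, taken as −log10 q, was not used.

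Python 3.11.15, pandas 2.3.3, NumPy 2.4.6 and Matplotlib 3.10.9 were used. A member was marked when a peak overlapped its RefSeq model or 3 kb on either side by at least 1 bp. Peaks were ranked by fold enrichment within their list. Overlaps were tested on simulated data, where 0 of 200 genes differed from a direct count. Members, gene lists and thresholds were chosen with earlier results of these data known. All 51 members are counted, 1 of them is not reported here by name, and those described in full had a range of at least 30 points or a percentile of at least 90, or belonged to the CXCR3 or CXCL12 axis. Genes of other lists were named where they had such a range or as markers. Alternatives were strict peaks, 1 kb windows, gene ends, peak centres, the nearest gene, equal numbers of top peaks, ranking by −log10 p, a difference of 20 points and peaks near 1 gene only. There is no error per value, because the lists hold none per gilt. Promoter sequences were not analysed here.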

Additional observations from a re-analysis of the deposited data

How the results depend on the processing

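No paired analysis was possible because the lists were called on pooled gilts and hold no value per gilt, and for that reason no gilt could be left out in turn. Of 135 recomputed counts, 109 stayed within 1.5 times the reported one and 26 did not, and members were marked less often than all genes under every alternative. Keeping only strict peaks moved most. It left 19 members with H3K4me3 in GD15M_CM (37.3%, all genes 69.0%) and 17 in CD15M_CM (33.3%, all genes 71.1%). H3K27ac was left at 5, 4 and 6 members in GD15M_CM, GD15M_LM and CD15M_CM, and as many had both marks. Of all genes, 38.9%, 44.5% and 37.7% kept H3K27ac. Between the layers 3 members were then higher in GD15M_CM and 4 in GD15M_LM for H3K4me3, and 1 in GD15M_CM and 0 in GD15M_LM for H3K27ac. Between pregnant and cyclic tissue 6 were higher in GD15M_CM and 5 in CD15M_CM for H3K4me3. For H3K27ac 2 were higher in GD15M_CM and 3 in CD15M_CM. With a difference of 20 points, 1 was higher in GD15M_CM and 4 in GD15M_LM for H3K4me3 and 5 in each for H3K27ac. Of GD15M_CM and CD15M_CM, 5 were then higher in the first and 4 in the second for H3K4me3. For H3K27ac these were 3 and 9. Equal numbers of top peaks gave 3 higher in GD15M_CM and 6 in GD15M_LM for H3K4me3 and 6 and 8 for H3K27ac, and ranking by −log10 p gave 5 and 6 for H3K4me3. The layer with more of the higher members thus changed for H3K4me3 under all 4 of these settings and for H3K27ac with equal numbers of top peaks. Between pregnant and cyclic tissue the H3K4me3 order turned under strict peaks and at 20 points. It also turned with equal numbers of top peaks (10 in GD15M_CM and 7 in CD15M_CM). Using only peaks near 1 gene, an alternative chosen after seeing the data, gave 17 members with H3K4me3 in CD15M_CM (33.3%, all genes 56.6%). It left 10, 12 and 9 members with both marks. The H3K27ac difference of CXCR5 between GD15M_CM and CD15M_CM turned to 29.0 points. Differences of at least 30 points stayed at 10 points or more in the same direction in 176 of 208 recomputations, 4 of 26 under the strict threshold. Causes were not tested beyond what each alternative removes. Windows of 1 kb, gene ends, peak centres and nearest genes moved no count by over 1.5 times.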
